A study of Mus musculus with 3 samples.

Results

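Guca2a, Guca2b and Gucy2c encode the guanylin signalling unit of the gut: 2 secreted peptides, guanylin and uroguanylin, and the receptor that both bind. The 3 genes were taken by symbol from the 32285 genes of the expression matrices and followed across the cell classes of the mouse colon. The source was 3 single-cell RNA libraries from the colon of germ-free mice: 1 labelled as treated with phosphate-buffered saline (PBS), 1 after colonization with a bacterium given as BT WT, and 1 after colonization with a BT mutant. All 3 groups share the germ-free host. What BT stands for, which mutation it was, how long colonization lasted, and the strain, age and number of mice are not given in the labels.

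Guanylin and uroguanylin are short peptides cut from the end of longer precursors and released mainly into the gut lumen. They bind guanylate cyclase C, the product of Gucy2c, a membrane receptor that turns GTP into the second messenger cyclic GMP. Cyclic GMP activates the kinase encoded by Prkg2, which opens the chloride channel CFTR and restrains sodium uptake through NHE3 (Slc9a3), so that salt and water stay in the lumen. Heat-stable enterotoxins of Escherichia coli act through the same receptor. In the colon guanylin is known chiefly as a product of surface absorptive cells, while uroguanylin is better known from the small intestine.

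The ligand genes are neighbours on chromosome 4. In GENCODE vM21 on the GRCm38 build, Guca2a (ENSMUSG00000023247) lies at chr4:119637704-119639471 on the plus strand and Guca2b (ENSMUSG00000032978) at chr4:119656607-119658954 on the minus strand, with 17.1 kb between them. Gucy2c (ENSMUSG00000042638) lies on chromosome 6 at chr6:136697284-136781765 on the minus strand and spans 84482 bases. The last 15 codons of each ligand's coding sequence are shown because they encode the active peptide. Both stretches lie in exon 3 of 3, at chr4:119639228-119639272 for Guca2a and chr4:119656795-119656839 for Guca2b. They are written 5′ to 3′ on the coding strand, with cysteine codons in capitals.
Guca2a: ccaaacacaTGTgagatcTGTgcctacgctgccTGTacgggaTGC
Guca2b: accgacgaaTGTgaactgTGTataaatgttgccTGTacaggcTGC
Both hold 4 cysteine codons, all 4 in the same places, and 29 of the 45 bases and 5 of the 15 codons are identical. Those cysteines form the disulfide bonds that hold the peptides in their active shape.

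The promoters are shown because the neighbouring ligand genes were compared cell class by cell class below. RefSeq promoter entries on GRCm38.p6 covered 2 of the 3 genes, Guca2a and Guca2b. The 250 bases before each start are at chr4:119637482-119637731 (plus strand) and chr4:119658946-119659195 (minus strand). Capitals mark matches to the GATA motif, given below as read on the other strand.
Guca2a promoter: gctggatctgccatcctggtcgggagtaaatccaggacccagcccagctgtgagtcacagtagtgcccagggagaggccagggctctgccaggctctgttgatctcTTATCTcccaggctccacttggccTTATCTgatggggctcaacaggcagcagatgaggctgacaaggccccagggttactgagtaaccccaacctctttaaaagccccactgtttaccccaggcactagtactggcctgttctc
Guca2b promoter: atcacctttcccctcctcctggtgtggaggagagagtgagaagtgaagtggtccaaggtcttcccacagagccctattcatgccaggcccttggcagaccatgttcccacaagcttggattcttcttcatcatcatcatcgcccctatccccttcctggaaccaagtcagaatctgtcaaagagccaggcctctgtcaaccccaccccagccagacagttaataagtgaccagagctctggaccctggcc
The search ran on both strands of the 300-base entries, which also hold 50 bases past the start. The GATA motif AGATAA matched at 2 places in the Guca2a promoter, from 144 to 139 and from 120 to 115 bases before the start, on the minus strand, and at none in that of Guca2b. Of all 32817 promoters of that length, 11.2% held it. Neither promoter held the CDX motif TTTATG (11.9% of all) or the TATA box TATAAA (13.6% of all). A match describes letters and not a bound site.

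Transcripts were counted by unique molecular identifiers (UMIs). The deposited matrices held 42003444, 55436776 and 54943483 UMIs for PBS, BT WT and BT mutant, over 4425, 8829 and 8195 barcodes. Barcodes with at least 300 genes and at most 25% mitochondrial UMIs numbered 3198, 7070 and 6138. The mitochondrial limit cut through a dense range: 228, 1331 and 1224 of the barcodes kept lay between 20% and 25%, and 257, 823 and 794 lay just outside, up to 30%. Pairs of libraries shared 8 to 19 barcodes. Cells were clustered without the 3 genes, and clusters were called colonocyte-like, goblet-like and so on by marker sets that also leave them out. With 1 library per group no test was possible and no difference has a replicate check: a difference between treatments cannot be told apart from a difference between these libraries. Levels are given as CPM, the UMIs of a gene per 1000000 UMIs of the class sum. Intervals are exact 95% intervals (Poisson for levels, conditional binomial for ratios, Clopper-Pearson for shares) and cover counting error only. A difference is called where it is at least 1.5-fold with an interval that excludes 1.

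All 14 colonocyte markers were detected in colonocyte-like cells of every library, where they summed to 28555, 16821 and 22051 CPM in PBS, BT WT and BT mutant. Other classes were less pure. The goblet markers summed to 4303 CPM in the stem and transit-amplifying-like cells of PBS and to 2253 in those of BT WT, above the 1205 and 1434 CPM of their own markers. In tuft-like cells of BT WT goblet markers, at 8792 CPM, also exceeded the tuft markers, at 7894. The part of these markers in the levels of those classes was not tested. The clusters behind those cells differed between libraries. In PBS, 343 of 612 colonocyte-like cells, with 94.3% of the UMIs, were cluster 13, which held no cell of the other libraries and had Gsta1 and Aldh1a1 among its leading genes. In BT WT, 2605 of 3260 were cluster 0, led by Ifit1bl1, Atp12a and Ly6g, with Aqp8 among its 10 leading genes. A further 162 and 71 PBS cells lay in clusters 5.2 and 5.5, which hold shallow barcodes. In BT mutant, 1435 of 2986 were cluster 2, led by Hbb-bs and Slc17a4, and 605 were cluster 7, led by Ly6m and Clca4a. Cluster 6, led by Car1 and Fabp2, held 531 BT mutant cells with 61.0% of the class's UMIs. Goblet-like cells numbered 428, 870 and 155, stem and transit-amplifying-like cells 56, 84 and 155, and tuft-like cells 39, 86 and 123. Enteroendocrine-like cells numbered 5, 8 and 8, too few to compare.

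Guca2a, the guanylin gene, was a product of colonocyte-like cells in all 3 libraries. Of all Guca2a UMIs, these cells held 75.7% in PBS, 70.0% in BT WT and 82.0% in BT mutant. Their level was 5265 CPM in PBS (95% interval 5222 to 5310), 2255 in BT WT (2233 to 2277) and 4574 in BT mutant (4546 to 4603), so that BT WT was the low library. Goblet-like cells had 619, 401 and 757 CPM, and the colonocyte-like level was 8.50, 5.62 and 6.04 times as high.

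Guca2a levels of other cells are read against free RNA, which reaches every droplet. B-like cells, which should not make guanylin, had 296 CPM in PBS, 148 in BT WT and 165 in BT mutant. Stem and transit-amplifying-like cells had 236, 228 and 210 CPM, below the B-like level in PBS and above it in the other 2 libraries. Tuft-like cells had 166, 339 and 643 CPM, likewise below the B-like level in PBS and above it in the other 2 libraries. A Guca2a UMI was found in 94.6%, 80.9% and 89.6% of colonocyte-like cells and in 61.7%, 25.4% and 34.7% of B-like cells, at median depths of 8931.5, 3952 and 3334.5 against 3481.5, 2886 and 2767 UMIs. After each cell was thinned to 1000 UMIs the shares were 90.0%, 50.6% and 71.2% of colonocyte-like cells and 24.3%, 9.63% and 14.8% of B-like cells. Thinning left out 134, 132 and 123 shallower colonocyte-like cells and 5, 25 and 16 B-like cells. Free Guca2a itself was lower in BT WT, at 0.499 times the PBS level in B-like cells (0.454 to 0.549), while BT mutant stood at 1.12 times BT WT there (0.9998 to 1.251). That last value joined unlike clusters. In B-like clusters 1 and 3 taken alone BT mutant was 1.77 (1.496 to 2.09) and 1.53 times BT WT (1.12 to 2.07), at 157 against 88.6 and 124 against 81.4 CPM. In T-like cells it was 2.47 times (2.10 to 2.92), at 311 against 126 CPM. So Guca2a was higher in BT mutant than in BT WT in these lymphocytes too, which should not make it.

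**Figure D1:**
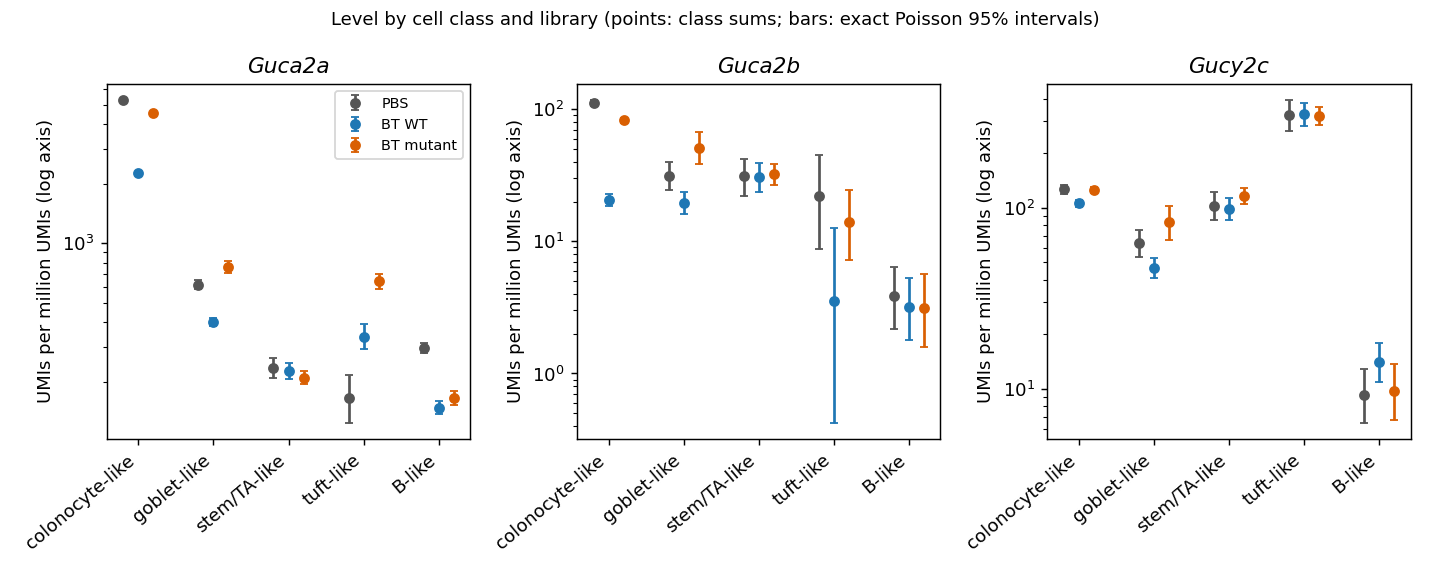
Level of each gene (CPM, log axis) in 4 epithelial classes and in B-like cells, for PBS, BT WT and BT mutant; points are class sums of 1 library and bars exact Poisson 95% intervals. Guca2a is highest in colonocyte-like cells (2255 to 5265), Gucy2c in tuft-like cells (322 to 328), and Guca2b in colonocyte-like cells of PBS and BT mutant but not of BT WT.

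Gucy2c, the receptor gene, had a flat pattern over the absorptive lineage and its highest level in tuft-like cells. Colonocyte-like cells had 126 CPM in PBS (120 to 133), 106 in BT WT (101 to 110) and 125 in BT mutant (120 to 130). Stem and transit-amplifying-like cells had 103 (85.8 to 122), 98.7 (85.8 to 113) and 116 CPM (105 to 128). The colonocyte-like level was 1.23, 1.07 and 1.08 times that of stem and transit-amplifying-like cells, with intervals that included 1 in all but PBS. Receptor levels of goblet-like cells were lower, at 63.9, 46.5 and 83.0 CPM. B-like cells had 9.28, 14.01 and 9.76 CPM, so the receptor stood well clear of free RNA in all 4 epithelial classes.

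In tuft-like cells, the rare chemosensory cells of the epithelium, Gucy2c stood at 326 CPM in PBS (267 to 395), 328 in BT WT (283 to 379) and 322 in BT mutant (285 to 362). These were 2.58, 3.11 and 2.57 times the colonocyte-like levels. The cells rested on 104, 187 and 275 Gucy2c UMIs, found in 32 of 39, 65 of 86 and 89 of 123 cells. After thinning, 41.7%, 26.2% and 29.5% of tuft-like cells held a Gucy2c UMI, against 9.41%, 9.18% and 10.2% of colonocyte-like cells. The tuft-like level was above the colonocyte-like level in all 3 libraries. Markers of other classes differed between the tuft-like cells of the libraries: the 14 goblet markers summed to 615, 8792 and 213 CPM, and the 14 colonocyte markers to 1246, 3254 and 3291 CPM. Guca2b had 22.0, 3.51 and 14.1 CPM there on 7, 2 and 12 UMIs, and in BT WT it was 1.10 times the B-like level (0.12 to 4.74).

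Guca2b, the uroguanylin gene, was sparse, with 2134, 1019 and 2554 UMIs in the 3 libraries. Colonocyte-like cells had 112 CPM in PBS (105 to 118), 20.6 in BT WT (18.6 to 22.8) and 82.7 in BT mutant (78.8 to 86.6). The stem and transit-amplifying-like level was 31.1, 30.7 and 32.2 CPM, with overlapping intervals. The colonocyte-like level was 3.595 times the stem and transit-amplifying-like level in PBS (2.62 to 5.06) and 2.56 times in BT mutant (2.12 to 3.13), but 0.670 times in BT WT (0.515 to 0.884). B-like cells had 3.87, 3.18 and 3.16 CPM.

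Within the absorptive lineage Guca2a and the receptor gene ran differently along an order of clusters by marker RNA, which is not a measured position. Clusters were ordered by the log2 ratio of summed colonocyte markers to summed stem markers, neither of which contains the 3 genes. At the stem end, cluster 9.4, a stem and transit-amplifying-like cluster, had 189 Guca2a CPM in BT WT and 106 in BT mutant. Clusters 9.5 and 9.3, which were too mixed to be named, had 563 and 1103 CPM in BT WT and 597 and 1170 in BT mutant. Cluster 9.1, led by the water channel gene Aqp4, had 2927 and 2381 CPM. Cluster 6 had 5659 CPM in BT WT and 6365 in BT mutant, and cluster 13 of PBS had 5360.

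Gucy2c stayed between 90.3 and 142 CPM in clusters 6 and 13 and the parts of cluster 9, wherever a library had at least 20 cells. It was 90.3 and 99.8 CPM in cluster 9.4 and 126 and 139 CPM in cluster 6, in BT WT and BT mutant. Over the same clusters Guca2a ran from 106 to 6365 CPM. Cells with a UMI of both Guca2a and Gucy2c made up 87.7% and 84.4% of cluster 6 in BT WT and BT mutant, and 76.7% of cluster 13 in PBS.

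Clusters with a high ratio of colonocyte to stem markers did not all have the most Guca2a. Clusters 0 and 2 had 881 and 937 Guca2a CPM in BT WT and 1158 and 1124 in BT mutant, and cluster 7 had 2163 and 2748. Their log2 ratios of colonocyte to stem markers were 7.65, 7.73 and 8.65, against 8.67 in cluster 6. Their summed colonocyte markers were lower, at 13823, 13436 and 21058 CPM against 25122 in cluster 6. These 3 clusters also differed from cluster 6 in quality measures: median mitochondrial shares were 18.6%, 18.9% and 19.4% against 14.8%. Their median depth was 3918, 2825 and 4251.5 UMIs against 20912. The nuclear RNA Neat1 stood at 5337, 5363 and 4570 CPM against 824. Shallow clusters differed in Guca2a. Cluster 11.3, 78 BT mutant cells with a median of 1100 UMIs, had 6187 CPM and a marker log2 ratio of 8.33. Over all libraries cluster 5.2, with a median of 999 UMIs, had 2664.5 CPM and a ratio of 8.03. The unnamed cluster 11.2, with a median of 1011 UMIs, had 832 CPM and a ratio of 3.35. The part of depth in these levels was not tested.

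Depth within a cluster was read in 3 equal groups of cells with the fewest, middle and most UMIs. In BT WT Guca2a went with depth in cluster 0, at 599, 761 and 1061 CPM, and in cluster 2, at 672, 812 and 1129. It did not in cluster 7 of BT WT, at 2183, 2221 and 2126 CPM, but did in cluster 7 of BT mutant, at 2308, 2422 and 3094. In cluster 6 Guca2a rose with depth in BT WT, at 4820, 5101 and 6081 CPM. BT mutant cells of cluster 6 had 6794, 6040 and 6431 CPM. In BT mutant cluster 0 had 808, 984 and 1400 CPM and cluster 2 had 941, 1057 and 1250. Cluster 13 of PBS had 4554, 5936 and 5235 CPM. Gucy2c did not follow depth in cluster 0 of BT WT, at 93.7, 106 and 96.6 CPM.

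**Figure D2:**
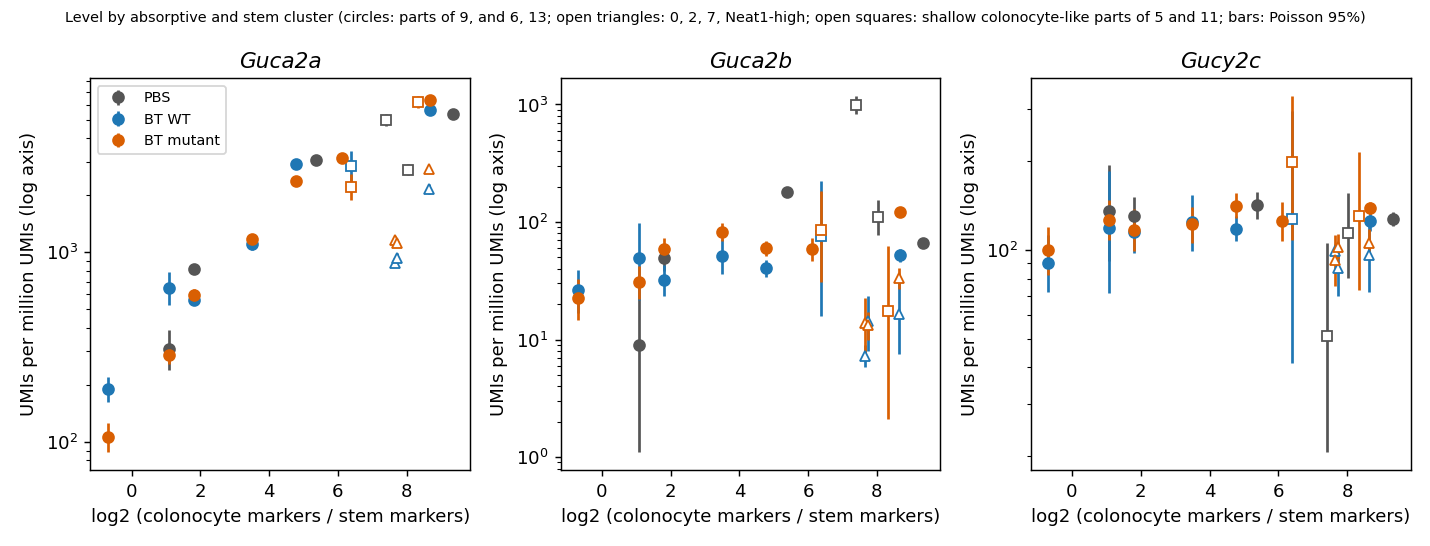
Level of each gene (CPM, log axis) in absorptive and stem clusters with at least 20 cells of a library, against the log2 ratio of summed colonocyte to summed stem markers; bars are Poisson 95% intervals, open triangles are clusters 0, 2 and 7, the Neat1-high ones, and open squares the shallow clusters 5.2, 5.5, 11.3 and 11.4. Guca2a runs from 106 to 6365 CPM along the filled circles. The triangles and the squares of 5.2 (2724 CPM) and 11.4 (2507 over all libraries) lie lower than clusters 6 and 13. Gucy2c lies between 86.6 and 142 CPM in circles and triangles and from 51.1 to 198 in the squares, which have wide bars.

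The first question of the design is what colonization with BT WT does in germ-free mice. Over whole colonocyte-like cells Guca2a was 0.428 times as high in BT WT as in PBS (0.423 to 0.434) and Guca2b 0.184 times (0.164 to 0.207), both called lower. At a mitochondrial limit of 10% the Guca2a log2 ratio was -0.53 against -1.22, under 1.5-fold. Gucy2c was 0.836 times as high (0.779 to 0.897), which is not called. Of all 11772 genes with at least 20 UMIs in these cells, 14.2% were called lower and 33.3% higher, so a call alone says little about a gene. The class was mostly clusters 13, 5.2 and 5.5 in PBS and clusters 0, 2, 6 and 7 in BT WT, and no cluster of the class had 50 cells in both libraries. Library and cluster cannot be told apart here.

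Cluster 9 as a whole, which runs from stem and transit-amplifying-like parts to unnamed parts led by Aqp4, had 115 PBS and 197 BT WT cells. Its parts differed between the libraries: 39 PBS cells made up part 9.7, with no cell of the other libraries, and part 9.1 held 5 PBS and 64 BT WT cells. Library and part cannot be told apart in a ratio over the whole cluster. There Guca2a was 1889 CPM in PBS and 1843 in BT WT, a ratio of 0.9755 (0.950 to 1.002). Gucy2c was 133 and 114 CPM, a ratio of 0.853 (0.769 to 0.947), not called. Guca2b was 107 and 37.2 CPM, a ratio of 0.346 (0.297 to 0.402) and called, where 4.47% of 10870 genes were called lower. A single PBS cell held 304 of its 547 Guca2b UMIs, and without it the ratio was 0.759 (0.634 to 0.908), which is not called.

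The second question is how the mutant differs from the wild type bacterium. This comparison shares the BT WT library with the first, so an unusual value there moves both in opposite directions. Over whole colonocyte-like cells Guca2a was 2.03 times as high in BT mutant as in BT WT (2.005 to 2.052) and Guca2b 4.02 times (3.59 to 4.50). Gucy2c was 1.18 times as high (1.12 to 1.26), not called. Of 12155 genes, 10.8% were called higher and 17.8% lower.

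Guca2a differed far less inside clusters. BT mutant stood at 1.12 times BT WT in cluster 6 (1.11 to 1.14), 1.27 times in cluster 7 (1.20 to 1.35), 1.31 times in cluster 0 (1.24 to 1.39) and 1.20 times in cluster 2 (1.12 to 1.29). None of these is called, where 4.73%, 3.44%, 3.39% and 2.98% of all genes in those clusters were called higher. In the whole of cluster 9 it was 0.822 times (0.802 to 0.841), not called, where 7.26% of 11321 genes were called lower. With clusters 0, 2, 6 and 7 given the same weights in both libraries, the level was 3685 CPM in BT mutant and 3195 in BT WT, a ratio of 1.15. Cluster 6 held 5.5% of BT WT and 17.8% of BT mutant colonocyte-like cells, and 69.8% and 84.8% of the class's Guca2a UMIs. The clusters were formed from genes that differ between the libraries, so a smaller difference within them is a description.

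Guca2b kept a difference inside cluster 6, where it was 52.1 CPM in BT WT and 122 in BT mutant, a ratio of 2.34 (2.06 to 2.68). It was called there, as were 4.73% of 10439 genes in that direction. Cluster 7 gave a ratio of 2.05 (1.03 to 4.61) on 9 and 97 UMIs, and cluster 0 one of 1.88 (1.01 to 3.28) on 84 and 15 UMIs. Both are called too, with intervals that start close to 1, where 3.44% and 3.39% of all genes were called higher. Cluster 2 gave a ratio of 0.924 (0.514 to 1.76), which is not called. With equal cluster weights the ratio was 2.20. Gucy2c lay between 0.935 and 1.18 times in these 4 clusters, with intervals that included 1 in all but cluster 6.

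**Figure D3:**
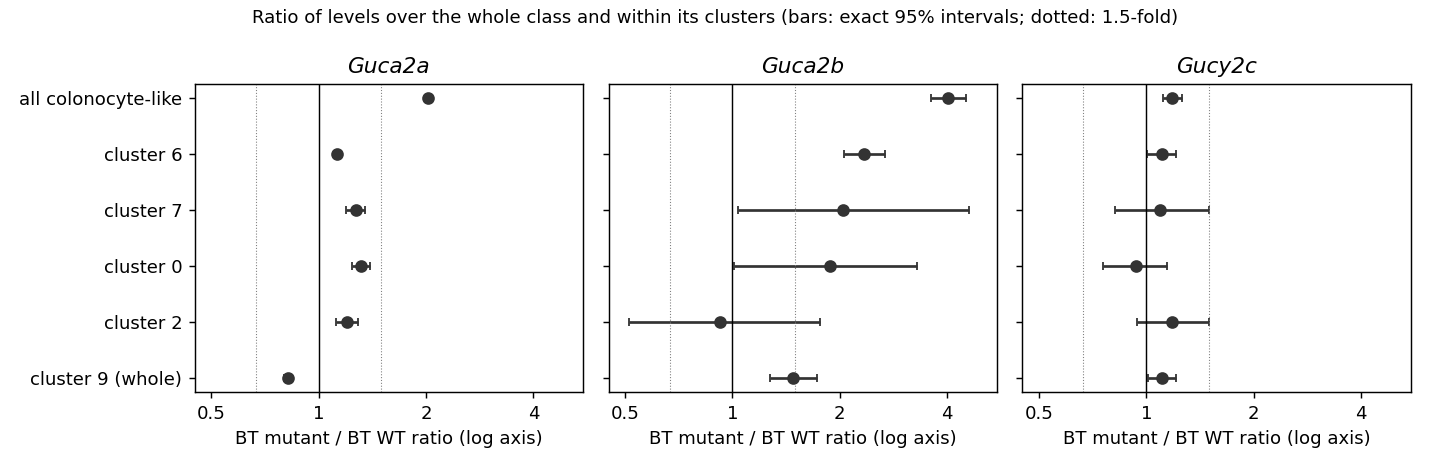
Ratio of the BT mutant level to the BT WT level (log axis) over all colonocyte-like cells, within clusters 6, 7, 0 and 2, and in the whole of cluster 9; bars are exact 95% intervals and dotted lines mark 1.5-fold. The Guca2a ratio is 2.03 over the class and 0.822 to 1.31 within clusters. The Guca2b ratio is 2.34 in cluster 6 and is also called in clusters 7 and 0, where its bars reach close to 1.

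Goblet-like cells gave lower ligand values in BT WT as well, but the class joined unlike clusters. Guca2a was 0.648 times the PBS level in BT WT (0.605 to 0.694) and 1.89 times the BT WT level in BT mutant (1.74 to 2.05). Guca2b was 0.626 times (0.457 to 0.863) and 2.60 times as high (1.83 to 3.63). Gucy2c was 0.729 times as high in the first comparison (0.590 to 0.905), not called, and 1.78 times in the second (1.38 to 2.28), called. Each of these calls was lost in at least 1 alternative. The log2 ratio of Guca2a for BT WT over PBS was -0.63, but -0.22 with at least 1000 genes per barcode, -0.24 without the parts of cluster 5, -0.35 with the B-like level subtracted and -0.57 at a Leiden resolution of 2.0, all under 1.5-fold. That of Guca2b was under 1.5-fold in 5 of 10 alternatives. With classes taken from each cell's own markers, BT mutant over BT WT was 0.35 for Guca2a and 0.30 for Gucy2c, also under 1.5-fold. One BT mutant cell of part 18.4 held 19 of the 53 Guca2b UMIs, and without it the ratio of BT mutant to BT WT was 1.70 (1.12 to 2.51), while at the 10% mitochondrial limit its log2 ratio was 0.54. Among all genes 15.7% were called lower and 14.3% higher in the first, and 13.1% lower and 19.2% higher in the second. In PBS, 254 of 428 goblet-like cells were cluster 5.1, with a median of 782.5 UMIs and 1810 Guca2a CPM.

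Cluster 4, the mucus goblet cluster led by Clca1 and Fcgbp, had at least 85 cells in each library. Its Guca2a level was 259, 357 and 656 CPM in PBS, BT WT and BT mutant, against 296, 148 and 165 CPM in B-like cells and 346, 126 and 311 in T-like cells. BT WT was 1.38 times PBS there (1.21 to 1.57), opposite to the class ratio. BT mutant was 1.84 times BT WT (1.60 to 2.09), called, as were 2.59% of 9112 genes in that direction, beside the 1.77 times of B-like cluster 1 and the 2.47 times of T-like cells. In 3 equal groups of cells from the fewest to the most UMIs, cluster 4 had 123, 146 and 539 CPM in BT WT and 210, 254 and 1008 in BT mutant. In PBS the order was the other way, at 639, 208 and 195 CPM. Gucy2c was 35.7, 41.3 and 45.9 CPM, with overlapping intervals, and Guca2b rested on 6, 13 and 1 UMIs.

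Guca2b in the goblet-like cells of BT WT and BT mutant lay largely in parts of cluster 18, led by Mptx1, Spink4 and Agr2: parts 18.2 and 18.4 held 65.5% and 18.2% of it in BT WT and 35.8% and 60.4% in BT mutant. The whole cluster also has an unnamed part led by the hormone genes Pyy and Gcg, with 18, 22 and 12 cells. The 78, 72 and 60 cells of the whole cluster had 44.3, 102 and 67.4 Guca2b CPM. BT WT was thus the high library here, and the low one in colonocyte-like cells. It stood at 2.31 times PBS (1.81 to 2.96), called, as were 3.62% of 9749 genes in that direction. The share of the unnamed part in this ratio was not tested. Guca2a in the whole cluster was 536, 490 and 448 CPM, and Gucy2c 99.0, 85.5 and 107 CPM.

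Much of Guca2b sat in a handful of cells. The 10 cells with the most Guca2b UMIs held 42.0%, 25.9% and 42.2% of the library's Guca2b in PBS, BT WT and BT mutant. The 10 highest cells held 12.1%, 9.54% and 5.31% of Guca2a. The single highest cells had 337, 60 and 509 Guca2b UMIs. A UMI of Guca2b was found in 10.9%, 4.78% and 10.1% of all cells, and 153, 184 and 307 of those cells had just 1.

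**Figure D4:**
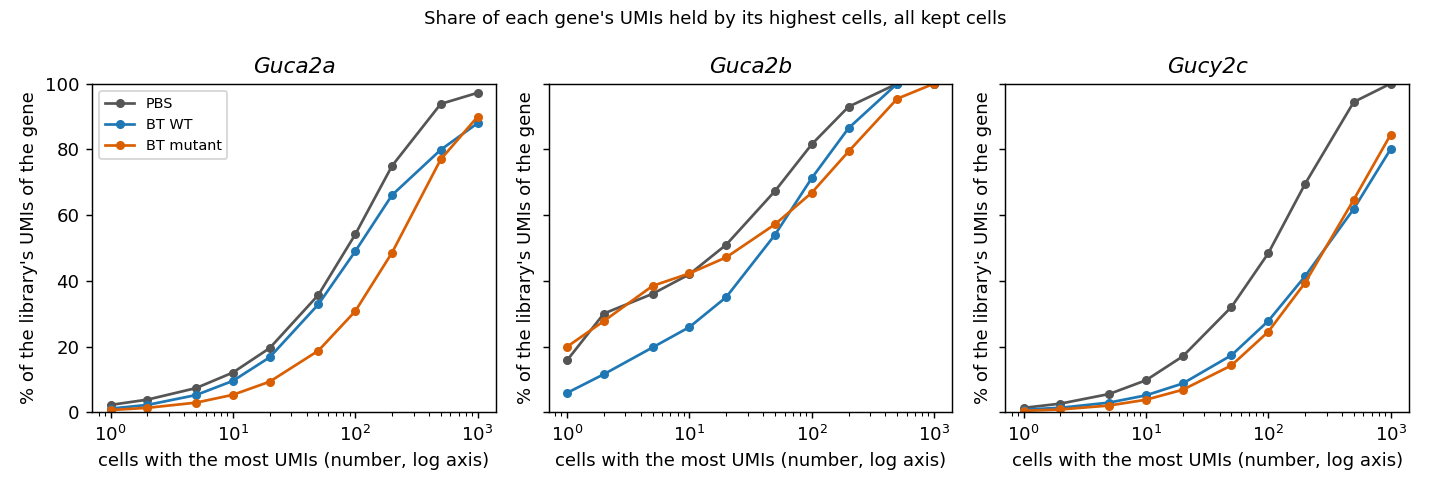
Share of a library's UMIs of each gene (percent) held by the cells with the most UMIs of it, against the number of cells (log axis), for PBS, BT WT and BT mutant. For Guca2b the 10 highest cells hold 25.9% to 42.2%, and for Guca2a 5.31% to 12.1%.

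Cells with at least 10 Guca2b UMIs and at least 1000 CPM were set apart after these values were seen. There were 20, 5 and 7 of them, and they held 47.7%, 19.7% and 39.7% of the library's Guca2b UMIs. The limit cuts a range: 11, 2 and 7 cells lay just outside, with at least 5 UMIs and at least 500 CPM. In BT mutant 5 of the 7 lay in cluster 6, and in BT WT 3 of the 5. In PBS 13 of the 20 lay in parts of cluster 5, 7 of them in the unnamed part 5.3, whose leading genes include the B cell genes Cd79a and Igkc, the fat cell gene Fabp4 and goblet genes. The PBS cell in cluster 6 held 337 of the 1169 Guca2b UMIs of the colonocyte-like cells. One BT WT cell lay in cluster 10, a T-like cluster, and held 60 of the 61 Guca2b UMIs of the T-like cells of that library; 1 of the 5 BT WT cells carried a doublet call. Their median depths were 3399.5, 11556 and 18828 UMIs.

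Of the cells rich in Guca2b, 12 in PBS, 4 in BT WT and 5 in BT mutant were colonocyte-like. Setting the rich cells against other colonocyte-like cells thus also sets unlike classes side by side. Other transcripts were also higher in the sum of these rich cells. The 2 deepest cells gave 63.2% of that sum in PBS, 46.4% in BT WT and 65.6% in BT mutant. The 10 genes with the highest ratio to the other colonocyte-like cells, with 10 CPM added to both, were taken in PBS and then read in the other libraries. In BT WT 9 of the 10 were called higher, where 5.15% of all genes were, and in BT mutant 10 of 10, where 10.7% were. These calls pool the UMIs of 5 and 7 cells. In BT WT those of Cst6, Vamp5, 9130204K15Rik and Tmem176a rested on 2, 3, 4 and 5 UMIs, in 1, 3, 4 and 2 cells. The first was Ubd, a ubiquitin-like protein induced by inflammatory cytokines, with 670 CPM in the PBS cells against 0.872 in other colonocyte-like cells. It had 1094 against 12.0 CPM in BT WT and 520 against 0.285 in BT mutant. Ubd was found in 17 of 20, 5 of 5 and 5 of 7 of these cells, and in 1.33%, 1.996% and 0.134% of the other colonocyte-like cells.

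Ccl20, the chemokine that attracts CCR6-bearing lymphocytes, had 335 against 0.387 CPM in PBS. It had 450 against 1.27 in BT WT and 241 against 0.143 in BT mutant, in 12, 3 and 3 of the cells. Not all were found in most of the cells: of the 20 PBS cells H2-M2 was in 2, Vamp5 in 4, 9130204K15Rik in 5, Cst6 and Tmem176a in 7 each, Fabp6 in 10, S100a11 in 14 and Cyba in 16. The others were S100a11, a calcium-binding protein, H2-M2, an MHC class I-like gene, Cyba, a subunit of the phagocyte NADPH oxidase, Tmem176a, Vamp5, Cst6, 9130204K15Rik and Fabp6. Fabp6, the ileal bile acid-binding protein, was the exception in BT WT, with 0 UMIs, against 104 in PBS and 56 in BT mutant. Pglyrp1, a peptidoglycan recognition protein named after its values were seen, had 923, 1464 and 1084 CPM, against 110, 70.4 and 101 in other colonocyte-like cells.

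Guca2a was also present in every one of these cells, at 10365, 4874 and 7491 CPM, or 1.99, 2.17 and 1.65 times the level of the other colonocyte-like cells. Within cluster 6 alone the rich cells had 7432 against 5646 CPM in BT WT and 8306 against 6333 in BT mutant, or 1.32 (1.16 to 1.49) and 1.31 times (1.25 to 1.38). Gucy2c was found in 9, 2 and 4 of them. Their colonocyte markers summed to 12855, 7143 and 12502 CPM, against 28714, 16841 and 22133 CPM in the other colonocyte-like cells. Goblet markers summed to 622, 949 and 2555 CPM against 1918, 2256 and 317. The BT mutant sum was uneven: the median rich cell had 208 CPM of goblet markers and the highest 29849. B markers summed to 133 CPM in PBS with 1 of 10 at 0, to 0 in BT WT and to 12.9 in BT mutant with 7 of 10 at 0. The part of such markers in these levels was not tested.

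**Figure D5:**
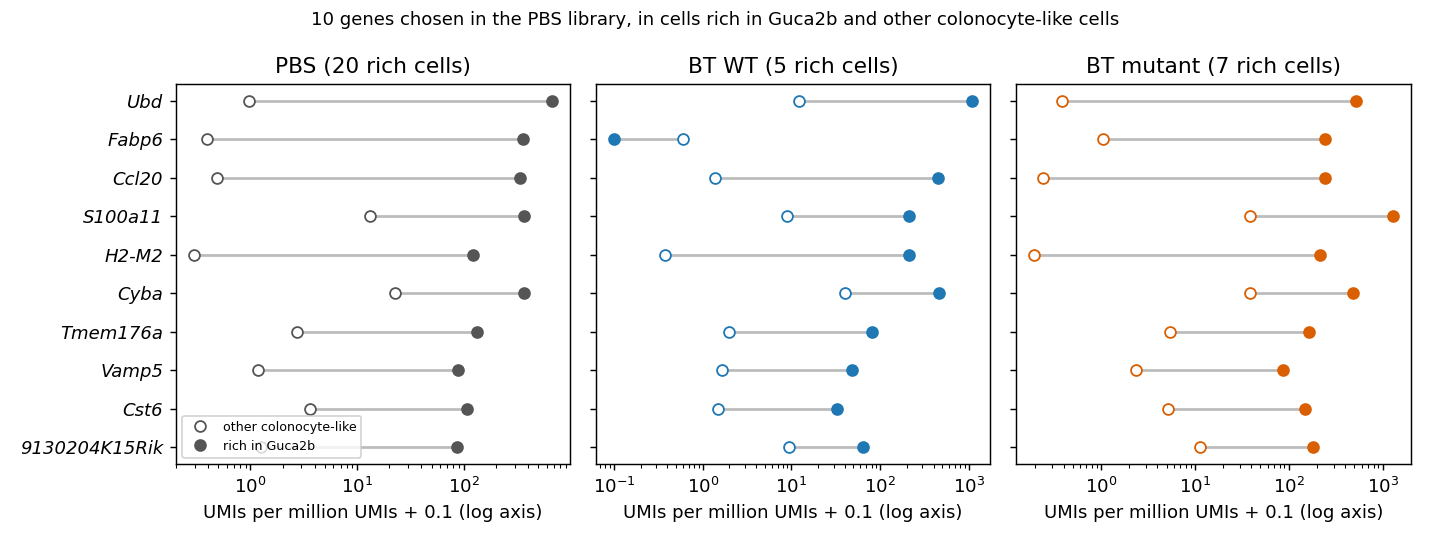
Level (CPM plus an offset that lets 0 be drawn, log axis) of the 10 genes chosen in PBS, in cells rich in Guca2b (filled) and in other colonocyte-like cells (open), in each library. In BT mutant all 10 genes stand higher in the rich cells, and in BT WT all but Fabp6, which had 0 UMIs there.

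Without the Guca2b-rich cells the colonocyte-like level of Guca2b was 56.0 CPM in PBS, 12.9 in BT WT and 36.8 in BT mutant. The ratios became 0.230 for BT WT over PBS (0.197 to 0.268) and 2.86 for BT mutant over BT WT (2.46 to 3.32). Within cluster 6 the ratio of BT mutant to BT WT was 1.67 without them (1.39 to 2.01), against 2.34 with them. BT WT was the lowest library for Guca2b in colonocyte-like cells with and without these cells.

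Downstream of the receptor, the genes of cyclic GMP effectors, breakdown and export showed no common direction. Of the 20 genes listed, 8 had at least 20 UMIs in colonocyte-like cells. For BT WT over PBS 2 were called higher and 3 lower, where 33.3% and 14.2% of all genes were, with a median log2 ratio of -0.01 against 0.11 over all genes. For BT mutant over BT WT 2 were higher and 1 lower, where 10.8% and 17.8% of all genes were, with a median of 0.02 against -0.05. Prkg2, the kinase that carries the receptor's signal to the ion transporters, had 18.9 CPM in PBS, 4.50 in BT WT and 17.0 in BT mutant, a pattern like that of Guca2a. Its ratios were 0.238 (0.182 to 0.309) and 3.77 (2.96 to 4.85), and in cluster 6 it was 1.68 times as high in BT mutant (1.31 to 2.18). Pde9a, a phosphodiesterase specific for cyclic GMP and the most abundant gene of the list, had 87.1, 109 and 110 CPM, under 1.5-fold in both comparisons.

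Abcc4, a pump that exports cyclic nucleotides, had 77.4 CPM in PBS but 0.494 in BT WT and 0.283 in BT mutant, on 810, 9 and 6 UMIs. Pde3a and Pde5a, a further pair of phosphodiesterases, were 1.60 and 1.53 times as high in BT WT as in PBS. Abcc5, another such pump, was 0.393 times as high in BT WT as in PBS and 2.01 times as high in BT mutant as in BT WT. Pde2a, a phosphodiesterase stimulated by cyclic GMP, was the largest mover of the list in goblet-like cells for BT mutant over BT WT, from 30.1 to 89.7 CPM. In goblet-like cells 0 of 8 genes were higher and 2 lower for BT WT over PBS, and 2 of 5 higher and 0 lower for BT mutant over BT WT, where 14.3%, 15.7%, 19.2% and 13.1% of all genes were in the same order. Inside goblet cluster 4, 3 of 5 were higher and 0 lower in the first comparison, and 1 of 5 higher and 0 lower in the second. There the shares of all genes were 12.8%, 6.72%, 2.59% and 5.15%.

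The other guanylate cyclases and natriuretic peptides were nearly absent from the absorptive cells. Of 16 genes only Guca1a had at least 20 UMIs in colonocyte-like cells, at 0.573, 0.988 and 0.989 CPM, with no call. It was called lower in goblet-like cells for BT WT over PBS, on 12 and 13 UMIs.

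Of 25 ion transport and scaffold genes 23 were measured in colonocyte-like cells. For BT WT over PBS 5 were called higher and 5 lower (median log2 ratio -0.12 against 0.11 over all genes), and for BT mutant over BT WT 4 higher and 5 lower (0.06 against -0.05). Of all genes 33.3% and 14.2% were called in the first and 10.8% and 17.8% in the second. Cftr and Slc9a3, the channel and exchanger named above, were not called over the class: Cftr had 25.2, 17.7 and 17.6 CPM, and Slc9a3 had 574, 475 and 666. Within cluster 6 Cftr was called lower in BT mutant, at 0.551 times BT WT (0.466 to 0.653), as were 8.77% of all genes. In goblet-like cells, a class that joined unlike clusters, Cftr was 0.441 times PBS in BT WT and 3.93 times BT WT in BT mutant, both called. Clcn2, a chloride channel, had 155, 135 and 266 CPM and was 1.97 times as high in BT mutant as in BT WT (1.88 to 2.07), and 1.54 times within cluster 6. Ano1, a calcium-activated chloride channel, was 4.05 times as high in BT WT as in PBS (3.29 to 5.03), at 39.9 against 9.84 CPM.

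In goblet-like cells 6 of these 23 genes were higher and 6 lower for BT WT over PBS, and 8 higher and 8 lower for BT mutant over BT WT. Of all genes in these cells 14.3% and 15.7% were called in the first and 19.2% and 13.1% in the second. Slc9a2, a sodium and proton exchanger, was the largest mover in the first, at 15.2 and 96.0 CPM. Scnn1g, a subunit of the epithelial sodium channel, was the largest in the second, at 75.7 and 13.5 CPM.

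Among 20 intestinal transcription factors, 19 were measured in colonocyte-like cells. For BT WT over PBS 10 were called higher and 1 lower (median log2 ratio 0.40, against 0.11 over all genes). For BT mutant over BT WT 2 were higher and 6 lower (-0.14 against -0.05). Of all genes 33.3% were called higher and 14.2% lower in the first, and 10.8% and 17.8% in the second. Klf4, a factor of differentiated surface cells and the most abundant, was level at 1519, 1566 and 1735 CPM. Hes1, the Notch target that favours absorptive fate, ran opposite to Guca2a, at 63.1, 184 and 56.2 CPM. Cdx2, a regulator of intestinal identity, had 67.5, 72.7 and 124 CPM and was 1.70 times as high in BT mutant as in BT WT (1.59 to 1.82), and 1.22 times within cluster 6. In goblet-like cells 6 were higher and 0 lower in the first comparison, and 1 higher and 6 lower in the second, beside the same shares of all genes as for the ion transport list. Inside cluster 4, 4 of 19 were higher and 0 lower in the first, and 0 higher and 2 lower in the second, beside that cluster's shares given above.

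Of 16 candidate peptide-processing enzymes 13 were measured in colonocyte-like cells, with 3 higher and 5 lower for BT WT over PBS and 3 higher and 1 lower for BT mutant over BT WT. Of all genes 33.3% and 14.2% were called in the first and 10.8% and 17.8% in the second. Medians of the log2 ratio were -0.09 and -0.02, against 0.11 and -0.05 over all genes. Mep1a, the meprin alpha subunit and one of the colonocyte markers, had 469, 514 and 686 CPM, under 1.5-fold in both comparisons. Mep1b, the beta subunit, followed Guca2a, with 370, 124 and 258 CPM and ratios of 0.335 (0.318 to 0.353) and 2.08 (1.98 to 2.19). Within cluster 6 its ratio of BT mutant to BT WT was 1.23.

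The genes most like each member were sought over 12 sums of 4 epithelial classes in 3 libraries. With 4 classes setting most of the spread, these correlations describe the shared class pattern. For Guca2a they were Slc34a2, a phosphate transporter, Mep1b, 1810065E05Rik, Clca4a and Abcg2, a drug and urate exporter, with Pearson r from 0.973 to 0.983. Clca4a is one of the colonocyte markers. For Guca2b they were Txndc17, Eif6, Adam9, Ugp2 and Gm15635, with r from 0.878 to 0.926. For Gucy2c they were Syne1, Coprs, Fam49a, Abcc5 and Cystm1, with r from 0.951 to 0.972, a group led by the tuft-like level. The 3 members were less alike among themselves: r was 0.62 between Guca2a and Guca2b, -0.14 between Guca2a and Gucy2c and -0.40 between Guca2b and Gucy2c. Over 45 sums of 24 epithelial clusters, a measure added after the data were seen, 1810065E05Rik was first for Guca2a (r = 0.90) and Pglyrp1 for Guca2b (r = 0.76).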

How the data were processed

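Each group gave 1 colon library, prepared with the v3 kit of 10x Genomics for 3′ ends (per the labels' protocols). The authors deposited whole-number UMI counts for every gene and barcode, with no normalization. Per the file headers the matrices come from Cell Ranger 5.0.0, and STAR and mm10 stand in the submitters' processing notes. How cells were called is not given in the sources used here. The members and gene lists were chosen with earlier results of these data known.

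Barcodes with at least 300 genes and at most 25% mitochondrial UMIs were kept. Scrublet (scanpy 1.11.5) called 3, 87 and 0 doublets, so it did not work in PBS and BT mutant, and doublets were kept. All libraries were clustered together on 2000 variable genes, 30 components and 15 neighbours with Leiden resolution 1.0. The 3 members and genes of mitochondria, ribosomes and antigen receptors stayed out of the clustering, as did Jchain and the sex-linked Xist, Ddx3y, Uty, Kdm5d and Eif2s3y. Unnamed clusters, and epithelial ones that scored for a second class, were divided once at resolution 0.5. A name needed a marker score of at least 1.5 (log2), at least 3 detected markers and no lead, or tie above 0, of another class among the 10 leading genes. It also needed a score under 1.5 for every class of another compartment (epithelial, lymphoid, myeloid or stromal). The rule was set after clusters were seen. UMIs were summed per class and library. Treatments were compared where both libraries had at least 50 cells, for genes with at least 20 UMIs in the pair, and list medians use a pseudocount of 10 CPM. Intervals were checked on simulated Poisson counts, the model they assume, so the check does not cover spread between cells or libraries.

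Of each list the most abundant gene and, per comparison, the one that differed most among those with at least 30 UMIs were named in colonocyte-like cells, and the latter in goblet-like cells for the cyclic GMP and ion transport lists. For likeness the 5 genes with the highest r of log2(CPM + 10) were named, among genes with at least 200 UMIs and sums of at least 20 cells. Abcc5, Pde3a, Pde5a, Cftr, Slc9a3 and Cdx2 were named after their values were seen. Some genes that this rule names are not reported here.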

Additional observations from a re-analysis of the deposited data

How the results depend on the processing

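No paired analysis was possible because each group had 1 library and all share the number 1. Over 12 ratios and 115 alternatives, 63 values stayed within counting error, 52 moved beyond it and 0 called values changed sign. Of 9 called ratios 7 were under 1.5-fold in at least 1 alternative; the exceptions were the Guca2b ratios in colonocyte-like cells. The values below are log2 ratios in colonocyte-like and goblet-like cells, WT/PBS for BT WT over PBS and mutant/WT for BT mutant over BT WT, and the cause of each move was not tested. The alternatives on cells rich in Guca2b, cluster 5 and cluster makeup were chosen after seeing the data. Under each alternative only values that moved beyond counting error are listed, and values that stayed within it are left out. Some of those left out were under 1.5-fold, as for Guca2b in goblet-like cells for BT WT over PBS.

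As reported, values were Guca2a -1.22, Guca2b -2.44, Gucy2c -0.26 (colonocyte, WT/PBS), Guca2a 1.02, Guca2b 2.01, Gucy2c 0.24 (colonocyte, mutant/WT), Guca2a -0.63, Guca2b -0.68, Gucy2c -0.46 (goblet, WT/PBS) and Guca2a 0.92, Guca2b 1.38, Gucy2c 0.83 (goblet, mutant/WT). With a mitochondrial limit of 10%, values were Guca2a -0.53, Guca2b -2.9997, Gucy2c 0.090 (colonocyte, WT/PBS), Guca2a 0.70, Guca2b 3.67, Gucy2c 0.11 (colonocyte, mutant/WT), Guca2a -1.42, Guca2b -0.12 (goblet, WT/PBS) and Guca2a 1.10, Guca2b 0.54 (goblet, mutant/WT). With the mean of single-cell CPM, values were Guca2a -1.97, Guca2b -3.52 (colonocyte, WT/PBS), Guca2a 1.15, Guca2b 1.36, Gucy2c 0.15 (colonocyte, mutant/WT), Guca2a -2.27, Guca2b -2.19, Gucy2c -0.76 (goblet, WT/PBS) and Guca2a 1.31 (goblet, mutant/WT). With median-ratio size factors, values were Guca2a -1.49, Guca2b -2.70, Gucy2c -0.52 (colonocyte, WT/PBS), Guca2a 1.15, Gucy2c 0.37 (colonocyte, mutant/WT) and Guca2a 0.79 (goblet, mutant/WT). With classes from each cell's own marker UMIs, values were Guca2a -0.80, Guca2b -2.09 (colonocyte, WT/PBS), Guca2a 0.71 (colonocyte, mutant/WT), Guca2a -1.02, Guca2b -2.31 (goblet, WT/PBS) and Guca2a 0.35, Gucy2c 0.30 (goblet, mutant/WT). With the B-like level subtracted, values were Guca2b -2.63 (colonocyte, WT/PBS), Guca2a 1.07, Guca2b 2.19, Gucy2c 0.33 (colonocyte, mutant/WT), Guca2a -0.35 (goblet, WT/PBS) and Guca2a 1.22 (goblet, mutant/WT). With at least 1000 genes per barcode, values were Guca2a 1.09 (colonocyte, mutant/WT) and Guca2a -0.22 (goblet, WT/PBS). At a Leiden resolution of 2.0, values were Guca2a 0.99 (colonocyte, mutant/WT) and Guca2a 0.77 (goblet, mutant/WT). With the highest doublet scores removed, values were Guca2a -0.95 (goblet, WT/PBS) and Guca2a 0.66 (goblet, mutant/WT). With the same cluster makeup, values were Guca2a 0.21, Guca2b 1.14, Gucy2c 0.087 (colonocyte, mutant/WT). Without the cells rich in Guca2b, values were Guca2b -2.12 (colonocyte, WT/PBS), Guca2b 1.51 (colonocyte, mutant/WT), and Guca2b 0.76 (goblet, mutant/WT). Without the parts of cluster 5, values were Guca2a -1.25 (colonocyte, WT/PBS) and Guca2a -0.24 (goblet, WT/PBS).

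The uncalled Gucy2c ratio of BT WT over PBS had the other sign at the 10% mitochondrial limit, which left 210, 275 and 336 colonocyte-like cells. Median-ratio scaling shifted all colonocyte-like genes by -0.26 and 0.13, and goblet-like genes by 0.04 and -0.13. Of 162 class levels under the alternatives, 87 stayed inside their counting interval. Guca2b rested on few UMIs in tuft-like and mucus goblet cells, which held 1 to 13 of them per library. In cluster 4 its level over all libraries was 3.28 CPM, against 3.87, 3.18 and 3.16 in B-like cells.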
